A study of Mus musculus with 38 samples.

Results

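The genes described here are 10 members of the Notch pathway in the mouse heart, namely the ligands Dll4 and Jag1, the receptors Notch1, Notch2, Notch3 and Notch4, and the target genes Hes1, Hey1, Heyl and Efnb2. They were taken from a table of 35682 genes as the rows whose Ensembl identifiers map to these symbols in GRCm39, and all 10 were found. The rule itself uses no measured value.

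Notch is a signal between touching cells. A ligand of the Delta or Jagged kind on one cell binds a Notch receptor on its neighbor, ADAM metalloproteases and then the γ-secretase complex cleave the receptor, and the freed intracellular domain enters the nucleus and joins the DNA-binding protein RBPJ. Genes of the Hes and Hey families, which encode transcriptional repressors, are its classical targets. In blood vessels DLL4 and NOTCH1 are known for restraining sprouting and for arterial identity, NOTCH4 is largely endothelial, NOTCH3 is the receptor of pericytes and smooth muscle cells, and ephrin-B2, the product of Efnb2, marks arterial endothelium.

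Male C57BL/6 mice, 8 to 12 weeks old, received a daily oral dose for 6 weeks before surgery. Sham mice received vehicle, dimethylsulfoxide diluted in saline, and an open-chest operation without ischemia. Control-AMI mice received the same vehicle and had 30 min of ischemia by ligation of the left anterior descending artery and 2 h of reperfusion. EMPA-Pre-AMI mice received empagliflozin (EMPA, an inhibitor of the glucose carrier SGLT2) at 10 mg/kg per day and the same ischemia and reperfusion. No group received EMPA without ischemia, so an effect of EMPA in the unoperated or sham-operated heart was not measured. Each of the 38 libraries pooled 2 hearts. Endothelial cells (ECs) were sorted as CD45- CD31+ cells, fibroblasts as CD45- CD31- CD90+ cells, and cardiomyocytes were pelleted at low speed after digestion without a sort. There were 4 EC libraries from Sham, 4 from Control-AMI and 5 from EMPA-Pre-AMI hearts, 4 fibroblast libraries of each group, and 4, 5 and 4 cardiomyocyte libraries in the same order.

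Total counts ranged from 1352522 to 2195311 in ECs, from 1946060 to 2821375 in fibroblasts and from 2031720 to 4509290 in cardiomyocytes, where mitochondrial transcripts took at least 46.6% of the counts. Levels are CPM, the reads of a gene scaled to a common library size, after TMM normalization, and stand on one of a pair of scales. The within-population scale was set among the libraries of one cell population and goes with comparisons of conditions, and the all-library scale was set over the 38 libraries and goes with comparisons of populations. Marker lists of 10 genes, summed on the all-library scale in Sham, gave 7562 to 7938 CPM of EC markers in ECs, 23720 to 36190 CPM of fibroblast markers in fibroblasts and 84890 to 101700 CPM of cardiomyocyte markers in cardiomyocytes, with all 10 genes of each list detected. Cardiomyocyte libraries of Sham also held 1228 to 1888 CPM of EC markers and 3605 to 5477 CPM of fibroblast markers. Fibroblast markers in ECs were 2194 to 9365 CPM in Control-AMI (9365, 2194, 2708 and 4969 CPM in replicates 1 to 4), against 532 to 1598 CPM in Sham and 477 to 926 CPM in EMPA-Pre-AMI. EC markers in the same libraries were 4475 to 5930 CPM in Control-AMI, 7562 to 7938 CPM in Sham and 5743 to 7817 CPM in EMPA-Pre-AMI. Control-AMI replicate 3 of the ECs stood apart in other ways, with 464 CPM of leukocyte markers against 23.6 to 40.1 CPM in the other Control-AMI ECs and 7.66 to 91.7 CPM in the ECs of the other conditions, on the all-library scale, and with 14.6% mitochondrial counts against 4.52% to 5.67% in the rest of its group. The part of that library's make-up in the EC results was not tested. In such bulk samples, fewer cells of a type and less RNA per cell cannot be told apart.

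The members lie on 6 chromosomes of GRCm39. Dll4 spans 119156170 to 119166443 on the plus strand of chromosome 2, which also holds Jag1 at 136923373 to 136958693 and Notch1 at 26347915 to 26406675, both on the minus strand. Notch2 spans 97920800 to 98057677 on the plus strand of chromosome 3 and Hey1 spans 8726956 to 8732385 on its minus strand. Notch3 lies at 32339794 to 32385893 on the minus strand of chromosome 17 and Notch4 at 34783220 to 34807477 on its plus strand. Hes1 spans 29882134 to 29886643 on chromosome 16 and Heyl 123127349 to 123143682 on chromosome 4, both on the plus strand. Efnb2 spans 8667226 to 8711249 on the minus strand of chromosome 8. Exons of 9 members overlap an annotated neighbor, in 8 of them only on the opposite strand and for Notch2 on the same strand, and none of these neighbors had counts.

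RBPJ, the factor that carries the Notch signal to DNA, is known to bind a core of the letters TGGGAA. This core was searched on both strands from 250 bases before to 50 bases after the start of each gene's canonical transcript. At least 1 copy was found in 2 of the 10 members and in 25.9% of 21523 protein-coding promoters, and the share among the members was not above that. Hes1 held 2 copies, where 4.12% of all promoters held 2 or more. Its sequence is shown because Hes1 is a classical target of the pathway and the member with the most copies. It is the 200 bases before the start, chr16:29883927-29884126 on the plus strand, written in the direction of the gene with the core in capitals.
Hes1: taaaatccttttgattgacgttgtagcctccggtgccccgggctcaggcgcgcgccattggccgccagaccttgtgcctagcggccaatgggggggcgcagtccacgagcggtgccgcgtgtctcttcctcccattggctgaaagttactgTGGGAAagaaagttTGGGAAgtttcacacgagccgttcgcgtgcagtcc
The cores lie at -49 to -44 and at -35 to -30 from the start, in the same direction. A match of letters is a description of the sequence and not a measured binding site.

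Sham libraries gave the order of the members among the 3 populations without ischemia or EMPA. Differences were tested with edgeR's quasi-likelihood test on 12085 genes, and calls rest on an FDR below 0.05, the p after Benjamini-Hochberg adjustment over all of them. Between ECs and fibroblasts 8 of 10 members passed, where 37.7% of all genes did. Dll4, Efnb2, Notch4, Hey1 and Notch1 were higher in ECs, and Heyl, Notch2 and Notch3 were higher in fibroblasts.

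**Figure D1:**
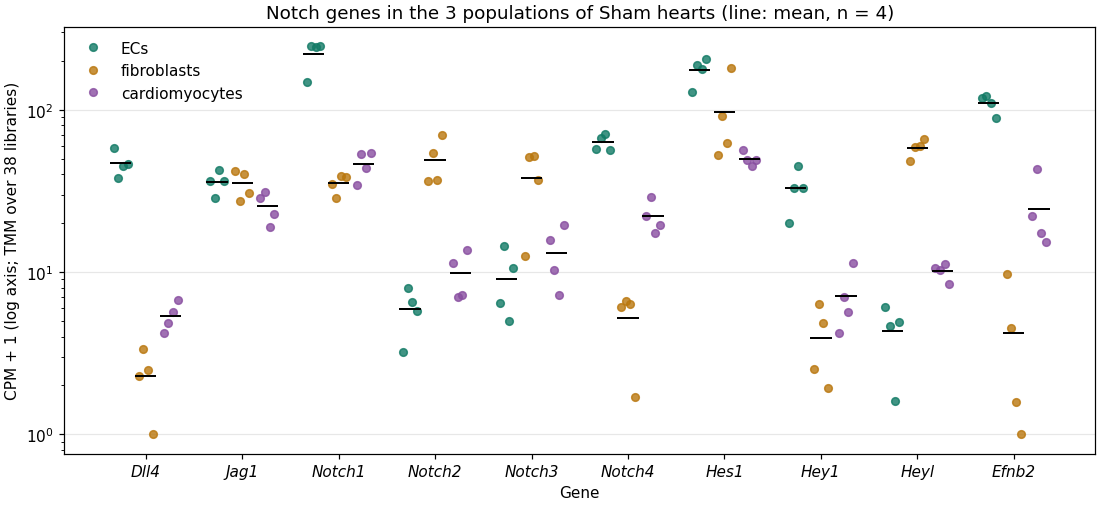
Level of each Notch gene in Sham libraries, as CPM + 1 on a log axis after TMM scaling over 38 libraries, with 4 libraries for each of ECs, fibroblasts and cardiomyocytes and a line at the mean. Dll4, Efnb2, Notch1, Notch4 and Hey1 are highest in ECs, Notch2, Notch3 and Heyl are highest in fibroblasts, and the Jag1 points of ECs and fibroblasts overlap.

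Of the ligands, Dll4 was at 46.1 ± 8.34 CPM in ECs, 4.37 ± 1.10 CPM in cardiomyocytes and 1.28 ± 0.972 CPM in fibroblasts on the all-library scale (mean ± SD, n = 4 each). Its 4 fibroblast libraries held 0 to 8 counts, near the limit of what these depths detect, and the fitted difference between ECs and fibroblasts was 5.18 ± 0.52 on the log2 scale (estimate ± SE, edgeR FDR 8.78e-11). Jag1, the ligand also known from smooth muscle and many other cells, was at 34.9 ± 5.58 CPM in ECs and 34.2 ± 7.11 CPM in fibroblasts on the same scale. The Jag1 difference was 0.03 ± 0.25 (log2, edgeR FDR 0.938), and the libraries of both populations overlapped. In cardiomyocytes Jag1 was at 24.4 ± 5.50 CPM and did not pass the test against either population. Its EC-minus-cardiomyocyte difference (0.51 ± 0.26, edgeR FDR 0.0979) passed with DESeq2 (0.58, FDR 0.0366) and in a fit of only the groups compared (0.54, edgeR FDR 0.0441). It also passed without cardiomyocyte EMPA-Pre-AMI replicate 2 (0.51, edgeR FDR 0.0467).

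The receptors divided by population. On the all-library scale Notch1 was at 220 ± 48.3 CPM in ECs, 45.3 ± 9.08 CPM in cardiomyocytes and 34.1 ± 4.81 CPM in fibroblasts. Notch4 was at 61.9 ± 6.95 CPM in ECs, 21.0 ± 5.02 CPM in cardiomyocytes and 4.18 ± 2.33 CPM in fibroblasts. For both, each EC library lay above each library of the other populations. Notch2 went the other way, with 35.2 to 69.0 CPM in fibroblasts (mean 48.3 CPM), 8.80 ± 3.22 CPM in cardiomyocytes and 4.87 ± 2.02 CPM in ECs. Notch3 was at 37.1 ± 18.4 CPM in fibroblasts, 12.2 ± 5.43 CPM in cardiomyocytes and 8.11 ± 4.25 CPM in ECs, and its fibroblast libraries were the most spread. The EC-minus-fibroblast differences were 2.69 ± 0.22 for Notch1, 3.91 ± 0.38 for Notch4, -3.28 ± 0.44 for Notch2 and -2.18 ± 0.64 for Notch3 (log2, edgeR FDR 0.00668 for Notch3 and below it for the others). With a term for runs of sample-sheet numbers, described below, the Notch3 difference was -0.58 (FDR 0.658). No Sham EC library shares a run with a Sham library of fibroblasts or cardiomyocytes. Among Sham libraries, the run and the difference of ECs from the other populations therefore cannot be told apart.

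Notch3 in the fibroblast gate moved with the markers of mural cells, which are the pericytes and smooth muscle cells around vessels. Across the 12 fibroblast libraries, the highest Notch3 level (173 CPM on the within-population scale) and the highest summed mural markers (4248 CPM on the all-library scale) were those of Control-AMI replicate 4, and the lowest of both (11.1 CPM and 642 CPM) were those of Control-AMI replicate 3. Pearson's r of the log2 values was 0.873 and Spearman's rho 0.832 over these 12 libraries, as a description of libraries that share conditions. The part of mural cells in the fibroblast level of Notch3 was not tested.

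Of the targets, Efnb2 was at 108 ± 14.2 CPM in ECs, 23.5 ± 12.7 CPM in cardiomyocytes and 3.20 ± 3.96 CPM in fibroblasts on the all-library scale. Hey1 was at 31.7 ± 10.2 CPM in ECs, 6.07 ± 3.07 CPM in cardiomyocytes and 2.90 ± 2.04 CPM in fibroblasts. Heyl, a repressor of the same family, was at 57.1 ± 7.39 CPM in fibroblasts, 9.14 ± 1.17 CPM in cardiomyocytes and 3.32 ± 1.91 CPM in ECs. The related genes Hey1 and Heyl therefore stood in opposite order, with EC-minus-fibroblast differences of 3.47 ± 0.42 and -4.11 ± 0.45 (log2, edgeR FDR 5.91e-09 and 7.86e-10). Hes1 was at 174 ± 32.6 CPM in ECs, 96.3 ± 58.8 CPM in fibroblasts and 48.7 ± 4.79 CPM in cardiomyocytes. The Hes1 difference between ECs and fibroblasts did not pass (0.85 ± 0.43, FDR 0.12), and fibroblast Sham replicate 4 had the highest Hes1 level of its group. Without that library the difference was 1.36 and passed (edgeR FDR 0.0163).

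Cardiomyocytes were lower than ECs for 6 members and higher for Heyl, so that 7 of 10 passed, where 52.9% of all genes did. Notch2, Notch3 and Jag1 did not pass in that comparison. Taken as ECs minus cardiomyocytes, Heyl went from -1.47 to -0.28 (edgeR FDR 0.733) and Hes1 from 1.84 to 0.81 (edgeR FDR 0.21) with the term for sample-sheet runs. Heyl was also lost without EC Sham replicate 3 (FDR 0.0624). Against fibroblasts 7 of 10 members passed, where 47.3% of all genes did, with Heyl, Notch2 and Notch3 lower and Dll4, Efnb2, Notch4 and Hey1 higher in cardiomyocytes. Taken as fibroblasts minus cardiomyocytes, the calls of Hey1 (-1.12 ± 0.47, edgeR FDR 0.0475) and Notch3 (1.58 ± 0.65, edgeR FDR 0.0431) lay close to the threshold. They were lost in 20 and 8 of 46 alternatives, with Notch3 at -0.12 under the term for sample-sheet runs. Without fibroblast Sham replicate 4 only Efnb2, Heyl, Notch2 and Notch4 passed. The cardiomyocyte pellet held EC markers at 19.4% of their summed level in ECs. Beside this, cardiomyocytes had 19.1% of the EC level of Hey1, 20.6% for Notch1, 21.7% for Efnb2, 28.0% for Hes1, 33.9% for Notch4 and 9.49% for Dll4, all on the all-library scale. The part of ECs in the cardiomyocyte values was not tested.

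Comparison of Control-AMI with Sham in ECs addressed what ischemia and reperfusion changed. All 10 members passed the filter on low counts among the 10450 genes tested in ECs. Dll4 and Hey1 fell and no member rose, so 2 of 10 were called, where 6.56% of all genes were. The median log2 fold change of the 10 members was -0.13, against -0.015 for all genes tested.

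**Figure D2:**
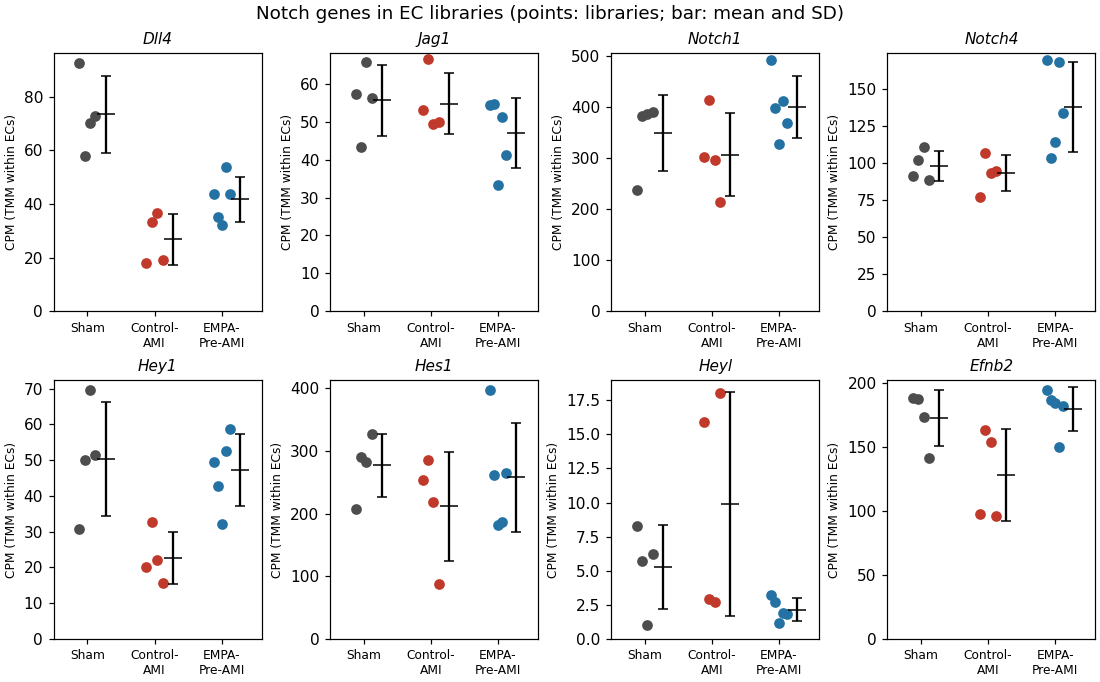
Level of 8 Notch genes in EC libraries, as CPM on the within-population scale with an axis from 0, where each point is a library and the bar gives mean and SD. The Dll4 points of Control-AMI (18.1 to 36.8 CPM) all lie below those of Sham (58.0 to 92.5 CPM).

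Dll4 was at 92.5, 58.0, 70.1 and 72.9 CPM in the Sham EC libraries and at 18.1, 33.2, 36.8 and 19.3 CPM in those of Control-AMI on the within-population scale. Each Control-AMI library was below each Sham library, with a log2 fold change of -1.46 ± 0.24 (edgeR FDR 0.00115). Dll4 and Notch2 were the members whose groups did not overlap, 2 of 10, where the groups did not overlap for 11.3% of all genes. Set against the summed counts of the 10 EC markers, Dll4 had 4.92 to 7.22 counts per 1000 marker counts in Sham and 2.40 to 3.97 in Control-AMI. With library sizes set to those markers the Dll4 log2 fold change was -0.91 (FDR 0.00665). Without Control-AMI replicates 1 and 4, which held the most fibroblast markers, it was -1.05 (FDR 0.0381).

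Hey1, a repressor gene downstream of Notch, was at 30.6, 49.9, 69.6 and 51.4 CPM in Sham and at 20.0, 32.6, 22.1 and 15.6 CPM in Control-AMI on the within-population scale. Control-AMI replicate 2 lay above Sham replicate 1, and the other libraries kept the order of the groups. The log2 fold change was -1.16 ± 0.27 (edgeR FDR 0.0101). It lost its call without Sham replicate 3 (FDR 0.063), without Control-AMI replicates 1 and 4 together (-0.87, FDR 0.179) and with library sizes set to the EC markers (-0.60, FDR 0.0864).

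Sample-sheet numbers in the labels fall into runs whose meaning is not stated. Control-AMI replicates 1 and 4 of the ECs come from a run that holds no EC library of Sham or EMPA-Pre-AMI. They are also the libraries with the most fibroblast markers, so the run, the fibroblast RNA and the group cannot be told apart for these libraries. Within the run that holds the most EC libraries, Dll4 was at 58.0 to 72.9 CPM in Sham (n = 3) and 33.2 to 36.8 CPM in Control-AMI (n = 2) on the within-population scale. Hey1 in that run was at 49.9 to 69.6 CPM and 22.1 to 32.6 CPM. A fit of that run alone gave -0.93 for Dll4 (edgeR FDR 0.0714) and -1.05 for Hey1 (edgeR FDR 0.0793), and neither passed. With a term for the run over all EC libraries, Dll4 passed (-0.95, FDR 0.037) and Hey1 did not (-0.88, FDR 0.171). That term takes up replicates 1 and 4, so the Control-AMI estimate rests on replicates 2 and 3. The same holds for the run alone and for the fit without replicates 1 and 4, so these are not separate checks.

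Without Control-AMI replicate 3, the library with the leukocyte markers, Dll4 was at -1.65 (edgeR FDR 0.000754) and Hey1 at -1.16 (edgeR FDR 0.0189), and both passed. That library is 1 of the pair of Control-AMI libraries behind the estimates of the run alone, without replicates 1 and 4, and with the term for the run.

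The other ligand and the endothelial receptors did not pass. Jag1 had a log2 fold change of -0.02 ± 0.20 (edgeR FDR 0.973), Notch1 of -0.19 ± 0.19 (FDR 0.64) and Notch4 of -0.08 ± 0.18 (FDR 0.858) between Control-AMI and Sham. Notch4 took the opposite sign and passed when library sizes were set to the EC markers (0.48, FDR 0.0469), a scaling that moved the median of all genes by 0.58. Efnb2 was at 172 ± 21.9 CPM in Sham and 128 ± 35.9 CPM in Control-AMI (log2 -0.44 ± 0.18, FDR 0.16), and Hes1 was at 277 ± 50.2 and 211 ± 86.8 CPM (-0.39 ± 0.33, FDR 0.568), on the within-population scale.

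The members that were low in ECs and high in fibroblasts stood on the other side. Notch2 was at 3.54, 10.9, 8.76 and 7.64 CPM in Sham and at 38.6, 11.7, 13.4 and 13.1 CPM in Control-AMI on the within-population scale, groups that did not overlap, with a log2 fold change of 1.31 ± 0.43 that did not pass (edgeR FDR 0.0683). It passed with DESeq2 (1.34, FDR 0.0453), with no filter on low counts (FDR 0.0295), without Control-AMI replicate 2 (FDR 0.0438) and with library sizes set to the EC markers (1.95, FDR 0.0037). The highest value was that of replicate 1, the library with the most fibroblast markers. Heyl was at 15.9 and 18.1 CPM in Control-AMI replicates 1 and 4 and at 2.91 and 2.67 CPM in replicates 2 and 3, against 0.973 to 8.25 CPM in Sham (0.93 ± 0.61, FDR 0.431). The part of fibroblast RNA in the EC levels of Notch2 and Heyl was not tested.

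Comparison of EMPA-Pre-AMI with Control-AMI in ECs addressed what EMPA changed on top of ischemia. Hey1 rose, as the 1 member of 10 called, where 2.61% of all genes were. This comparison and the former share the Control-AMI libraries, so a low value there lowers one fold change and raises the other. At an unadjusted p below 0.05 edgeR had 8 of the 10 members here and 1275 of 10450 genes. Of these members Dll4, Efnb2, Hey1, Notch1 and Notch4 were higher and Heyl, Notch2 and Notch3 lower in EMPA-Pre-AMI. Between Control-AMI and Sham it had 4 members and 2063 genes, and between EMPA-Pre-AMI and Sham 2 and 1477. The part of fibroblast RNA in these shifts was not tested.

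Hey1 was at 49.5, 42.7, 32.2, 52.5 and 58.7 CPM in the EMPA-Pre-AMI EC libraries on the within-population scale, against the 15.6 to 32.6 CPM of Control-AMI given above. Replicate 3 lay just below the highest Control-AMI library, and the other 4 lay above all of Control-AMI. The log2 fold change was 1.06 ± 0.26 (edgeR FDR 0.0231). Against Sham it was -0.10 ± 0.24 (FDR 0.894), which did not pass. The Hey1 call against Control-AMI was lost without Control-AMI replicate 1 (FDR 0.132) or replicate 4, or without EMPA-Pre-AMI replicate 1, 4 or 5. It was also lost without Control-AMI replicates 1 and 4 together (0.75, FDR 0.629), with library sizes set to the EC markers (0.62, FDR 0.107), with the term for the run (0.79, FDR 0.755) and in the fit of the commonest run alone (0.57, FDR 0.998).

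Dll4 was at 43.6, 35.2, 32.2, 53.8 and 43.7 CPM in EMPA-Pre-AMI on the within-population scale. Replicates 2 and 3 lay within the range of Control-AMI and the other 3 above it, and the rise of 0.64 ± 0.24 on the log2 scale did not pass (edgeR FDR 0.212). All 5 lay below all 4 of Sham, and the fall against Sham passed (-0.81 ± 0.22, FDR 0.0478) as the 1 member of 10 called, where 2.71% of all genes were. It was also the 1 member without overlap, where 6.57% of all genes had none. This call lay close to the threshold and was lost when any 1 of 7 libraries was left out, with FDR up to 0.122 without Sham replicate 1. Fibroblast markers in the EMPA-Pre-AMI ECs were 477 to 926 CPM, within or below the range of Sham. Per 1000 EC marker counts Dll4 had 2.62 to 4.71 counts in EMPA-Pre-AMI, below the 4.92 to 7.22 of Sham, although the fit scaled to these markers did not pass (-0.69, FDR 0.0946).

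Of the remaining members in ECs, Notch4 was at 138 ± 30.5 CPM in EMPA-Pre-AMI against 93.3 ± 12.2 CPM in Control-AMI on the within-population scale (log2 0.57 ± 0.17, edgeR FDR 0.0882), and Notch1 at 327 to 493 against 215 to 413 CPM (0.38 ± 0.18, FDR 0.394). Efnb2 was at 179 ± 17.2 CPM (0.49 ± 0.17, FDR 0.167), Hes1 at 258 ± 87.4 CPM (0.29 ± 0.31, FDR 0.821) and Jag1 at 33.4 to 54.6 CPM (-0.22 ± 0.19, FDR 0.752). Heyl was at 1.13 to 3.23 CPM, from 2 to 6 counts, with a log2 fold change of -2.18 ± 0.63 (FDR 0.0724). Notch2 (-1.06 ± 0.40, FDR 0.215) and Notch3 (-1.05 ± 0.46, FDR 0.33) likewise did not pass.

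**Figure D3:**
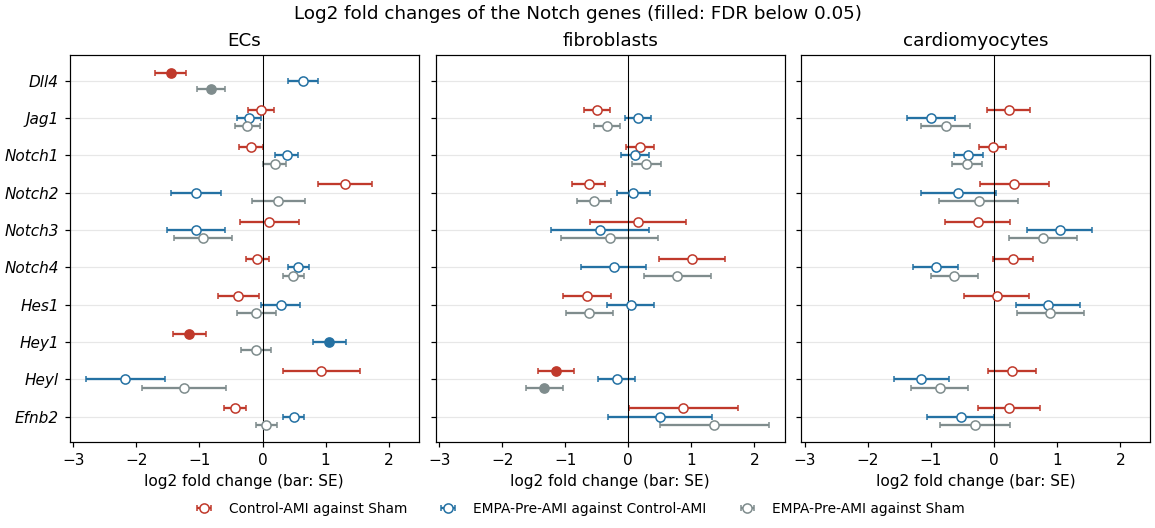
Log2 fold change of each Notch gene tested, with a bar of 1 SE, for the 3 comparisons of conditions in ECs, fibroblasts and cardiomyocytes, where filled points had an FDR below 0.05 and genes without a point did not pass the filter on low counts. Filled points are Dll4 and Hey1 in ECs and Heyl in fibroblasts.

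Beyond the members, 50 other genes of the pathway were listed, being other ligands, processing enzymes, parts of the nuclear complex and further targets. In ECs 43 of them were tested and 5 were called between Control-AMI and Sham, 2 higher and 3 lower, where 6.56% of all genes were. Rbpj, the DNA-binding partner of the receptor, rose from 110 ± 8.91 to 174 ± 38.6 CPM on the within-population scale (log2 0.66 ± 0.17, edgeR FDR 0.0192). Lfng, a fringe enzyme that modifies Notch receptors, fell by 2.05 ± 0.53 (FDR 0.02) from 18.1 ± 9.94 to 4.21 ± 2.49 CPM. Nrarp, a feedback regulator of the pathway, fell by 1.05 ± 0.32 (FDR 0.0488) from 41.8 ± 11.3 to 20.2 ± 9.97 CPM. Id1, an inhibitor of helix-loop-helix factors that is also a target of BMP signals, fell by 1.34 ± 0.20 (FDR 0.000434) from 577 ± 131 to 227 ± 29.3 CPM. Without Control-AMI replicates 1 and 4, the ECs with the most fibroblast markers, 2 of the 5 passed, namely Id1 (-1.19, FDR 0.0157) and Lfng (-3.00, FDR 0.0323), while Rbpj was at 0.45 (FDR 0.267) and Nrarp at -0.74 (FDR 0.317). With library sizes set to the EC markers Nrarp did not pass (-0.47, edgeR FDR 0.23). Id1 (-0.78, FDR 0.00531), Lfng (-1.45, FDR 0.0408) and Rbpj (1.26, FDR 0.000632) passed under that scaling, which moved the median of all genes by 0.58. Rbpj was higher in fibroblasts than in ECs of Sham, at 160 against 69.0 CPM on the all-library scale, and the part of fibroblast RNA in its rise was not tested. The 22 processing genes, of which 21 were tested, had a median log2 fold change of 0.02, and only Lfng among them passed.

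Between EMPA-Pre-AMI and Control-AMI none of these 43 genes passed in ECs. Against Sham, EMPA-Pre-AMI had Id1 lower (-0.79 ± 0.18, edgeR FDR 0.0162) and Spen, a co-repressor of RBPJ, higher (0.62 ± 0.16, edgeR FDR 0.0312). Levels of Lfng in EMPA-Pre-AMI were 6.29 ± 3.75 CPM and those of Nrarp 31.6 ± 9.10 CPM on the within-population scale, and neither passed against either group.

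Genes of arterial and venous endothelium were listed beside the pathway, 18 in all and 14 of them tested in ECs. Between Control-AMI and Sham 1 rose and 5 fell, where 6.56% of all genes were called, with a median of -0.36 on the log2 scale, while the EC markers themselves had a median of -0.53. Stmn2 fell by 0.99 ± 0.22 (edgeR FDR 0.0082), Unc5b, a netrin receptor of arterial endothelium, fell by 0.84 ± 0.19 (edgeR FDR 0.00971) and Fbln5, an elastic fiber protein, rose by 1.01 ± 0.25 (edgeR FDR 0.018). Nrp1, Nrp2 and Emcn were the others that fell. Emcn is also on the list of EC markers, so it enters both medians. Its value with library sizes set to those markers is partly fixed by its own counts. Without Control-AMI replicates 1 and 4 only Unc5b passed (edgeR FDR 0.0247). With library sizes set to the EC markers none of the 5 falls passed, with Unc5b at -0.24 (FDR 0.371), Stmn2 at -0.42 (FDR 0.137), and Nrp1, Nrp2 and Emcn at -0.04, -0.11 and -0.01, while Fbln5 passed (1.62, FDR 0.00115). Between EMPA-Pre-AMI and Control-AMI Stmn2 rose (1.11 ± 0.21, edgeR FDR 0.00587), Sox17, a transcription factor of arterial endothelium, rose (0.77 ± 0.20, FDR 0.0368) and Fbln5 fell by 1.09 ± 0.24 (FDR 0.0134). None of the 3 passed without Control-AMI replicates 1 and 4 (FDR 0.148 to 0.623), and with scaling to EC markers Sox17 (0.30, FDR 0.249) and Stmn2 (0.62, FDR 0.0579) did not, while Fbln5 did (-1.59, FDR 0.00312). Sox17 was at 90.2 ± 26.0 CPM in Sham, 108 ± 14.4 CPM in Control-AMI and 184 ± 43.9 CPM in EMPA-Pre-AMI on the within-population scale. In EMPA-Pre-AMI it passed against Sham as well (1.02 ± 0.20, FDR 0.00434), also with scaling to EC markers (1.12, FDR 0.000904). That pair of Control-AMI libraries is in neither of these groups, so leaving it out does not check this comparison (1.01, FDR 0.00536).

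In fibroblasts 8 members passed the filter among 10691 genes, and Dll4 and Hey1, at 0 to 8 and 2 to 19 counts per library, did not. Heyl fell between Control-AMI and Sham, as 1 of 8 members called, where 4.16% of all genes were. It also fell between EMPA-Pre-AMI and Sham, as 1 of 8, where 5.11% of all genes were.

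**Figure D4:**
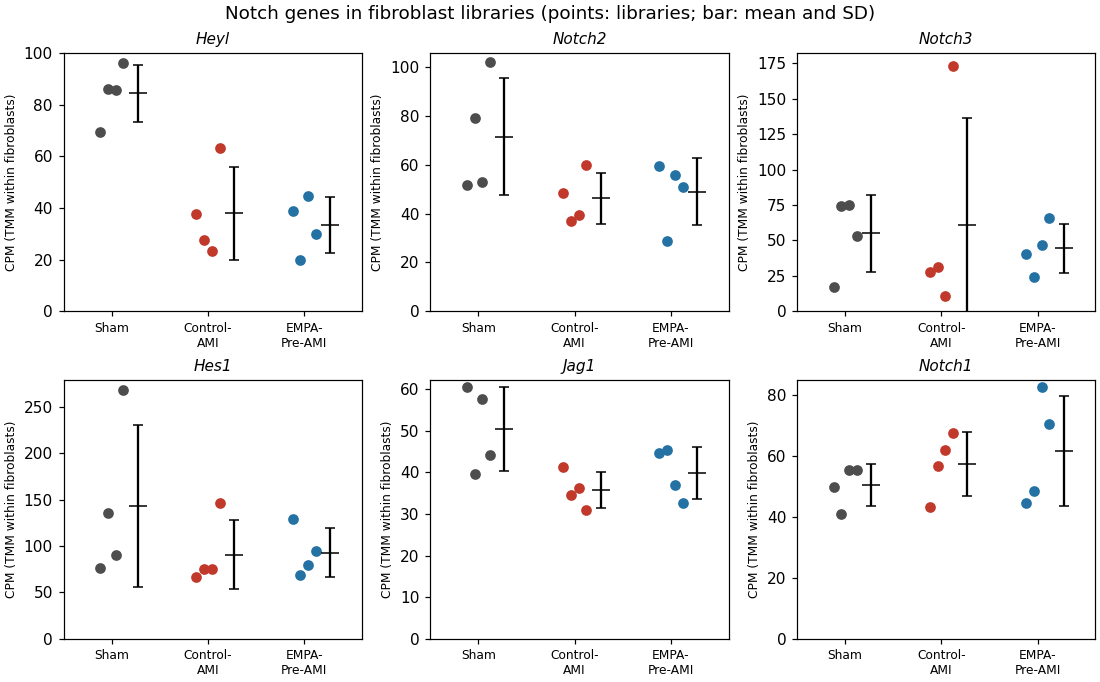
Level of 6 Notch genes in fibroblast libraries, as CPM on the within-population scale with an axis from 0, where each point is a library (4 in each group) and the bar gives mean and SD; the SD of Notch3 in Control-AMI exceeds its mean, so that bar runs below the axis. All Heyl points of Control-AMI (23.3 to 63.4 CPM) and EMPA-Pre-AMI (20.0 to 44.8 CPM) lie below those of Sham (69.4 to 96.3 CPM).

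Heyl was at 69.4, 86.2, 85.9 and 96.3 CPM in Sham fibroblasts, at 37.6, 27.8, 23.3 and 63.4 CPM in Control-AMI and at 38.9, 20.0, 44.8 and 30.1 CPM in EMPA-Pre-AMI on the within-population scale. Neither ischemic group overlapped Sham, and Heyl was the 1 member of 8 of which this held, against 12.3% of all genes for Control-AMI and 11.8% for the EMPA group. The log2 fold changes against Sham were -1.15 ± 0.29 (edgeR FDR 0.0343) and -1.33 ± 0.30 (edgeR FDR 0.0153). Between the ischemic groups Heyl did not pass (-0.19 ± 0.30, FDR 1). Within the sample-sheet run that holds 3 Control-AMI libraries, these were at 23.3 to 37.6 CPM and the 1 Sham library at 69.4 CPM, and within the run that holds 3 Sham libraries, these were at 85.9 to 96.3 CPM and the 1 Control-AMI library at 63.4 CPM. The call against Control-AMI was lost when any 1 of 6 libraries was left out (Sham replicates 2, 3 and 4, Control-AMI replicates 1, 2 and 3), with FDR up to 0.119 without Control-AMI replicate 2. That against EMPA-Pre-AMI was lost without EMPA-Pre-AMI replicate 2 (FDR 0.0509). Without Control-AMI replicate 4 and Sham replicate 2, the libraries with the most mural and the most leukocyte markers, the former was -1.50 (FDR 0.0117) and the latter passed with FDR 0.0104.

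No other member passed in fibroblasts. Notch2 was at 71.5 ± 24.0 CPM in Sham, 37.2 to 60.1 CPM in Control-AMI and 48.9 ± 13.8 CPM in EMPA-Pre-AMI on the within-population scale (-0.63 ± 0.27, edgeR FDR 0.201, for Control-AMI against Sham). Jag1 was at 50.4 ± 10.2, 35.8 ± 4.38 and 39.8 ± 6.16 CPM in the same order (-0.49 ± 0.20, FDR 0.188). Hes1 was at 75.8 to 268 CPM in Sham and 66.3 to 147 CPM in Control-AMI (-0.66 ± 0.37, FDR 0.365). Notch1 was at 50.4 ± 6.85 and 57.4 ± 10.4 CPM (0.18 ± 0.22, FDR 0.694). Notch3 spanned 11.1 to 173 CPM within Control-AMI alone (0.15 ± 0.76, FDR 0.937). Notch4 and Efnb2 were at 1.02 to 18.9 CPM and 0 to 12.8 CPM over Sham and Control-AMI, and EC markers in these libraries were 112 to 593 CPM on the all-library scale.

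Between EMPA-Pre-AMI and Control-AMI in fibroblasts 0 of 8 members were called, where 0% of all genes were. By edgeR 169 of the 10691 genes, and none of the members, had an unadjusted p below 0.05, and DESeq2 also called 0 genes.

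Of the 50 other pathway genes, 40 were tested in fibroblasts and 2 were called between Control-AMI and Sham, where 4.16% of all genes were, a share close to that of the list. Id2, a helix-loop-helix inhibitor, rose from 250 ± 15.7 to 510 ± 102 CPM on the within-population scale (1.03 ± 0.18, edgeR FDR 0.00314). Ccnd1, the cell-cycle gene of cyclin D1, rose from 275 ± 24.7 to 396 ± 25.0 CPM (0.52 ± 0.14, FDR 0.0443). Between EMPA-Pre-AMI and Sham, where 5.11% of all genes were called, Ccnd1 (0.78 ± 0.14, FDR 0.00394) and Myc, a growth regulator (2.51 ± 0.54, FDR 0.0133), rose. Without Control-AMI replicate 4 and Sham replicate 2, Id2 (0.96, FDR 0.0222), Ccnd1 between EMPA-Pre-AMI and Sham (0.72, FDR 0.0159) and Myc (2.29, FDR 0.0413) passed and Ccnd1 between Control-AMI and Sham did not (0.47, FDR 0.148). Id2, Ccnd1 and Myc also answer to many signals other than Notch.

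In cardiomyocytes 8 members were tested among 9167 genes, again without Dll4 and Hey1, and 0 were called in any comparison. The share of all genes called was 0.0655% between Control-AMI and Sham, 0.0218% between EMPA-Pre-AMI and Control-AMI and 0.338% between EMPA-Pre-AMI and Sham. At an unadjusted p below 0.05, edgeR had 249, 2295 and 1672 genes and 0, 3 and 0 members, and DESeq2 called none of the members either. The 3 members were Jag1 (FDR 0.113), Heyl (-1.15 ± 0.44, FDR 0.118) and Notch4 (-0.93 ± 0.35, FDR 0.117), each lower in EMPA-Pre-AMI. Jag1 was at 9.06 to 16.8 CPM in Control-AMI and at 2.57, 15.1, 3.96 and 5.28 CPM in EMPA-Pre-AMI on the within-population scale. Fibroblast markers were 834 to 5010 CPM in these 4 libraries and 2865 to 7036 CPM in Control-AMI, on the all-library scale, and their part in the values was not tested. All Sham and Control-AMI cardiomyocyte libraries come from the same sample-sheet run. That run holds EMPA-Pre-AMI replicate 4 but not replicates 1, 2 and 3, so for these the run and EMPA cannot be told apart. With a term for the run, the EMPA-Pre-AMI estimate in cardiomyocytes rests on replicate 4. None of the 37 other pathway genes tested passed in cardiomyocytes.

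Whether an effect differed between populations was tested directly, in the fit of all 38 libraries. That fit took the libraries as independent, although the populations were isolated from shared hearts. For Control-AMI against Sham, 1 of 10 members passed between ECs and fibroblasts, where 3.22% of all genes did, 0 between ECs and cardiomyocytes (1.51%) and 0 between fibroblasts and cardiomyocytes (0.331%). The member was Heyl, whose effect in ECs minus that in fibroblasts was 2.11 ± 0.61 (log2, edgeR FDR 0.0415). Heyl fell in fibroblasts, while in ECs it was high in the pair of Control-AMI libraries with the most fibroblast markers and low in the other two. The call was lost when any 1 of 11 libraries was left out, with FDR up to 0.204 without EC Control-AMI replicate 1. Dll4 (-1.01 ± 0.85, FDR 0.735) and Hey1 (-1.14 ± 0.59, FDR 0.437) did not pass there, so their fall was not shown to differ from fibroblasts, where their counts were few.

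For EMPA-Pre-AMI against Control-AMI, 0 of 10 members passed between ECs and fibroblasts (2.04% of all genes did), ECs and cardiomyocytes (0.993%) or fibroblasts and cardiomyocytes (0.00827%). At an unadjusted p below 0.05 edgeR had 3, 5 and 1 members and 978, 1993 and 1840 genes. DESeq2 called 1 member in each of the first pair of these comparisons, where it called 304 and 403 of 12085 genes. The largest of the EC-minus-fibroblast differences was that of Hey1 (2.20 ± 0.65, edgeR FDR 0.0657).

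Over the 9 groups, on the all-library scale, Dll4 was highest in Sham ECs (46.1 CPM), then in EMPA-Pre-AMI ECs (26.2 CPM) and Control-AMI ECs (17.2 CPM), and the last pair of these overlapped. Heyl was highest in Sham fibroblasts (57.1 CPM), apart from Control-AMI fibroblasts (26.0 CPM), and each later pair of neighbors overlapped. Every neighboring pair in the order of Jag1, from 35.1 CPM in Control-AMI ECs to 14.0 CPM in EMPA-Pre-AMI cardiomyocytes, overlapped in its libraries. The same held for Hes1, from 174 CPM in Sham ECs to 48.7 CPM in Sham cardiomyocytes, and for Hey1, from 31.7 CPM in Sham ECs to 1.24 CPM in EMPA-Pre-AMI fibroblasts. For Efnb2, Notch1 and Notch4 the break lay between the lowest EC group (81.8, 197 and 59.8 CPM, all Control-AMI) and the highest other group. For Notch2 it lay between the lowest fibroblast group (31.6 CPM) and Control-AMI ECs (12.3 CPM), and for Notch3 no neighbors were apart.

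Genes whose log2 CPM was most like that of each member over the 38 libraries mostly followed the populations. For Dll4 they were Cd200, Tcim and Id1, with Pearson's r of 0.958, 0.948 and 0.945. For Notch1 they were Crim1, Garre1 and Nrp1 (0.972, 0.963 and 0.961), for Notch4 Plcb4, Adgrf5 and Myo10 (0.960, 0.955 and 0.953) and for Efnb2 Adgrf5, Gpr4 and Tspan13 (0.968, 0.964 and 0.952). For Notch3 they were Kcnj8, Pdgfrb and Steap4 (0.896, 0.876 and 0.866), of which Kcnj8 and Pdgfrb are on the mural marker list. For Heyl they were Pcdh18, Antxr1 and Zeb2 (0.941, 0.939 and 0.934), and for Notch2 Bmp1, Igsf3 and Col15a1 (0.938, 0.935 and 0.931). Hey1 was most like Ppp1r16b, Ctnnb1 and Ripor1 (0.924, 0.915 and 0.914), Hes1 most like Id3, B2m and Nedd9 (0.925, 0.914 and 0.880), and Jag1, with the weakest likeness of the 10, most like Pcdhgc5, Iqce and Synm (0.842, 0.784 and 0.775). These correlations describe libraries that share population and condition.

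**Figure D5:**
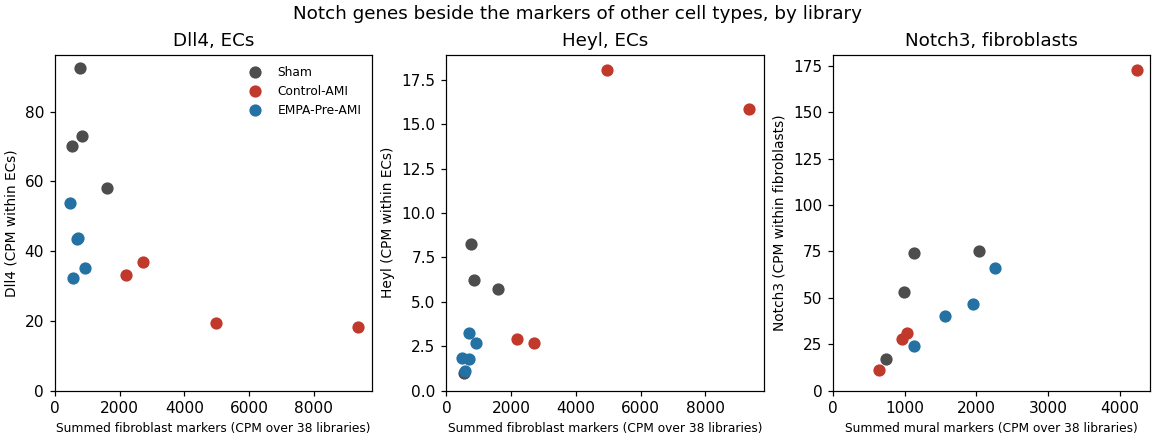
Level of Dll4 and Heyl in EC libraries against summed fibroblast markers, and of Notch3 in fibroblast libraries against summed mural markers, with a point for each library; vertical axes are CPM on the within-population scale and horizontal axes CPM on the all-library scale. Control-AMI ECs hold more fibroblast markers (2194 to 9365 CPM) than Sham (532 to 1598 CPM), the 2 with the most have the highest Heyl, and the fibroblast library with 4248 CPM of mural markers has the highest Notch3 (173 CPM).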

How the data were processed

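RNA of cardiomyocytes, ECs and fibroblasts was sequenced with a 3′ kit (QuantSeq FWD), in which each transcript is counted near its end. The authors trimmed reads with cutadapt 2.8 and quantified them against GRCm39 (Ensembl 106) with Salmon. They deposited expected counts per gene, without normalization. These were rounded to whole numbers (4.55% of values were not whole). The p-values measure the spread between pools of 2 hearts. By the paper's protocol, cardiomyocytes came from the pellet and the sorted populations from the supernatant of the same digested hearts. The labels do not say which libraries share hearts. Comparisons of populations and interactions therefore treated libraries of shared hearts as independent.

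Groups and replicate numbers came from the labels. The analysis used R 4.3.3 and edgeR 4.0.16 with limma 3.58.1. Each population was filtered (filterByExpr, minimum count 10), TMM-scaled and fitted with 3 groups by edgeR's robust quasi-likelihood test, as the study did for each population. A fit of 9 groups over all libraries gave the comparisons of populations and the interaction contrasts. P-values were adjusted by Benjamini-Hochberg over all genes of a fit and called below 0.05. Counts of 3 correspond to 0.665 to 2.22 CPM, depending on the library. The fits were tested on simulated data.

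The members and gene lists were chosen with earlier results of these data known. Named genes were the 10 members, the genes of the pathway lists called in a comparison of conditions (up to 5 by FDR), the 3 with the largest fold change in each Sham comparison, and the 3 genes most like each member. Rbpj, Lfng, Nrarp, Nrp1, Nrp2 and Emcn were named beyond that rule, after their values were seen, to complete small counts. Gene positions and starts came from GENCODE M39 on GRCm39. Alternatives were DESeq2 1.42.0, RLE factors, no robust estimation, other filters, blocking on the replicate number and adjusting for the run of sample-sheet numbers. Further ones were factors without mitochondrial genes, fits of only the groups compared, the commonest run alone in ECs and leaving out each library. A pair of left-out libraries in ECs and in fibroblasts, and scaling to EC markers, were chosen after seeing the data. A gene that the rule names and a sequence are not reported here.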

Additional observations from a re-analysis of the deposited data

Results flagged for a closer look

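In 8 of the 89 groups of 4 or 5 libraries looked at, 1 library lay far from the others by Dixon's criterion, which flags about 1 group in 20 by chance. All levels here are CPM on the within-population scale. In ECs, Notch1 was at 239 CPM in Sham replicate 1 and at 383 to 391 CPM in the other Sham libraries. Efnb2 was at 150 CPM in EMPA-Pre-AMI replicate 4 of the ECs and at 182 to 194 CPM in the others. Notch2 was at 38.6 CPM in Control-AMI replicate 1 of the ECs, the library with the most fibroblast markers, and at 11.7 to 13.4 CPM in the others.

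In fibroblasts, Control-AMI replicate 4, which had the most mural markers, had 173 CPM of Notch3 and 147 CPM of Hes1, against 11.1 to 31.2 CPM and 66.3 to 75.1 CPM in the others of its group. Notch4 was at 1.02 CPM in Sham replicate 4 of the fibroblasts, which had the lowest EC markers (112 CPM on the all-library scale), and at 7.51 to 8.36 CPM in the others. In cardiomyocytes, EMPA-Pre-AMI replicate 2 had 104 CPM of Hes1 and 26.0 CPM of Notch3, against 15.5 to 24.2 CPM and 3.11 to 6.69 CPM in the others. The same library had 446 CPM of summed leukocyte markers on the all-library scale, against 67.9 to 205 CPM in the others of its group.

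The effect of Control-AMI against Sham on Heyl differed between ECs and fibroblasts, by 2.11 on the log2 scale (interaction contrast of edgeR, FDR 0.0415). The parts of other cell types in these values were not tested.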

How the results depend on the processing

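Counts per library were low for Dll4 (0 to 13) and Hey1 (1 to 19) outside ECs and for Heyl in ECs (2 to 35). No called member changed sign in ECs or fibroblasts under the alternatives run. Dll4 in Control-AMI against Sham ECs passed in 23 of 24 alternatives and Hey1 in 19. Hey1 in EMPA-Pre-AMI against Control-AMI ECs passed in 14 of 24, Dll4 in EMPA-Pre-AMI against Sham ECs in 13, Heyl in fibroblasts in 15 and 20 of 21, and the Heyl interaction in 32 of 46. Leaving out 1 library made up 13 of the 24, 12 of the 21 and 38 of the 46 alternatives. Part of these left out a library outside the groups compared, which enters only through filter, scaling and the shared spread. The shares that passed are therefore not shares of separate checks. The cause of the losses was not tested, beyond the fewer libraries that some fits hold.

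Members called in ECs, Control-AMI against Sham, went from 2 to 1 with a term for the sample-sheet run, to 0 within the commonest run, to 1 without Control-AMI replicates 1 and 4, and to 3 with DESeq2 and with no filter (Notch2 added) and with scaling to EC markers (Dll4, Notch2 and Notch4). In EMPA-Pre-AMI against Control-AMI the 1 member became 2 with DESeq2 and with no filter, 0 with a term for the run, within the commonest run and without those replicates, and 3 (Heyl, Notch2 and Notch3, not Hey1) with scaling to EC markers. In EMPA-Pre-AMI against Sham it became 0 without robust estimation, within the commonest run and with scaling to EC markers. That scaling moved the median of all genes by 0.58 in the first comparison, -0.45 in the second and 0.13 in the third. It called 3674, 1121 and 291 of 10450 genes in them, where the main fit called 686, 273 and 283. In the first, 3 of 10 members was a smaller share than that of all genes. In the first and second, DESeq2 called 890 and 343 genes, and no filter 878 and 458 of 19169. The term for the run called 234 and 9 genes, the commonest run 180 and 3, and the fit without those replicates 232 and 38. With 10 counts required in every library 1, 2 and 1 members were called in Sham ECs against fibroblasts, ECs against cardiomyocytes and fibroblasts against cardiomyocytes (8, 7 and 7 before), since few members were then tested, and the last of these was Hes1 (1.21, FDR 0.0246), which was not among the 7. The 1 interaction for Control-AMI against Sham, ECs minus fibroblasts, became 2 with DESeq2 and 0 with no filter and with a term for the run. With 10 counts in every library it was 0, since Heyl was not tested there. In a fit of only the groups compared it stayed 1, where 379 of 11615 genes were called. In that fit Heyl did not pass (2.08, edgeR FDR 0.083) and Notch2 did (1.91, edgeR FDR 0.0279). The interactions for EMPA-Pre-AMI against Control-AMI went from 0 to 1 with DESeq2, for ECs minus fibroblasts and for ECs minus cardiomyocytes. Of 12085 genes DESeq2 called 304 and 403 in these, and 521 in that for Control-AMI against Sham, ECs minus fibroblasts.

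Leaving out each library gave 1 to 3 members in ECs for Control-AMI against Sham, 0 to 2 for EMPA-Pre-AMI against Control-AMI and 0 to 1 for EMPA-Pre-AMI against Sham. It gave 0 to 1 in fibroblasts against Sham for either ischemic group, 0 to 2 in cardiomyocytes for EMPA-Pre-AMI against Control-AMI, and 4 to 8 for Sham fibroblasts against cardiomyocytes. The interactions ranged over 0 to 2 (both comparisons, ECs minus fibroblasts) and 0 to 1 (EMPA-Pre-AMI, either population minus cardiomyocytes).

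The main fits did not pair samples by replicate number. Of 36 correlations of same-numbered libraries 12 were over 0.1 (range -0.11 to 0.48), and 6 of the 12 in fibroblasts were. Differently numbered libraries were not set beside them, so whether the numbers pair the samples was not settled. With the replicate number as a block, 0 members passed in EMPA-Pre-AMI against Control-AMI ECs (Hey1 0.99, FDR 0.0929) and 0 against Sham (Dll4 -0.83, FDR 0.103), and no other member's call changed. Among values called in the main fit or in the alternative, a pair took the other sign. They were Notch4 in Control-AMI against Sham ECs with scaling to EC markers (0.48) and Notch3 in Sham fibroblasts against cardiomyocytes with a term for the run (-0.12, FDR 0.903). Changes of sign between values called in neither fit were not counted. Over all genes, DESeq2 called 880 where edgeR called 2 between EMPA-Pre-AMI and Control-AMI cardiomyocytes.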

Other observations

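Other genes of the Notch pathway were tested between the populations of Sham hearts. Of 46 tested, 12 were higher and 8 lower in ECs than in fibroblasts, 22 were higher and 3 lower in ECs than in cardiomyocytes, and 16 were higher and 8 lower in fibroblasts than in cardiomyocytes. Of all genes 37.7%, 52.9% and 47.3% were called in these comparisons, near the shares of the list. Dll1, a ligand of the same family as Dll4, had 27 to 56 counts in EC libraries, 0 to 1 in fibroblasts and 0 to 4 in cardiomyocytes. Mfng, a fringe enzyme, had 40 to 121 counts in ECs, 0 to 4 in fibroblasts and 7 to 13 in cardiomyocytes. Sox17 was at 56.8 ± 16.5 CPM in ECs, 0.976 ± 1.58 CPM in fibroblasts and 5.73 ± 1.27 CPM in cardiomyocytes on the all-library scale (mean ± SD, n = 4 each).

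Stmn2 was at 54.6 ± 9.74 CPM in ECs, 10.2 ± 4.75 CPM in cardiomyocytes and 1.23 ± 1.42 CPM in fibroblasts on the same scale. Vwf, the endothelial gene of von Willebrand factor, was at 363 ± 177 CPM in ECs and 40.7 ± 16.7 CPM in cardiomyocytes. Between populations, the effect of Control-AMI against Sham passed the test for 1 of these 46 pathway genes. This was Id2, with an effect in ECs minus that in fibroblasts of -1.21 ± 0.34 (log2, edgeR FDR 0.0356).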
